A study of Mus musculus with 2 samples.

Results

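The class I antigen-presentation genes described here are 10 of the 43346 annotated genes measured in CH12.LX. This established cell line was grown from a B-cell lymphoma of a mouse, and its labels pair it with the human line GM12878. The genes were chosen by symbol, without a threshold on any measured value: the heavy-chain genes H2-K1, H2-D1, H2-Q4, H2-Q7 and H2-T23, the light-chain gene B2m, the transporter genes Tap1 and Tap2, the loading-chaperone gene Tapbp and the regulator gene Nlrc5. All 10 were found in the deposited gene tables by Ensembl identifier. The study holds 1 group, for which the labels name no treatment, of 2 RNA-sequencing libraries numbered as biological replicates 1 and 2 from separate biosamples. The donor strain was B10.H-2aH-4bp/Wts, of female sex and unknown age. RNA longer than 200 nt was sequenced with ERCC spike-in RNA. One label reads total RNA and another poly(A)+, and which holds was not settled here. With 1 group there is no comparison between conditions, so genes are compared within the line and the replicates with each other.

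MHC class I molecules carry peptides from proteins made inside the cell to the surface, where CD8 T cells and natural killer cells read them. Proteasomes cut the peptides, the TAP transporter moves them into the endoplasmic reticulum, and tapasin, encoded by Tapbp, holds the transporter next to an empty heavy chain paired with beta-2 microglobulin. NLRC5 is the transactivator of this gene set and acts with the RFX, CREB and NF-Y factors at a shared promoter module. In B cells the pathway runs beside class II presentation.

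A limit of the model concerns the alleles. The strain name gives the H-2a haplotype, which carries k-type alleles at H2-K and d-type alleles at H2-D, while the mm10 assembly that the reads were aligned to comes from C57BL/6J, which carries H-2b alleles. Reads of differing alleles may align less well, and the effect on the levels of the heavy-chain genes was not tested. Levels below are in TPM, which is transcript abundance per length on a common total for both libraries, as mean ± SD over the 2 replicates (n = 2). The libraries held 24469094 and 23586580 expected counts, of which the 10 genes took 0.302% and 0.277%.

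The heavy-chain genes lie on chromosome 17 and are close copies of each other, so their shared sequence is shown before their levels. The coding sequences of the main coding transcripts of H2-K1 and H2-D1 were 91.5% identical over 1077 aligned bases. Among the 10 heavy-chain pairs the lowest identity was 75.1%, between H2-Q7 and H2-T23. The H2-Q7 coding sequence used has 645 bases. Its pairs were therefore aligned over 642 to 645 bases and the other pairs over 975 to 1077, so the identities cover unlike parts of the genes. The longest identical stretch of the 10 pairs in these coding sequences was 145 bases, between H2-D1 and H2-T23. It lies in exon 4 of both genes, at chr17:35265827-35265971 on the plus strand and chr17:36030910-36031054 on the minus strand (GRCm38, the assembly also named mm10). In the same coding sequences H2-K1 and H2-D1 shared at most 91 bases in a row, also in exon 4. They lie at chr17:33997343-33997433 on the minus strand and chr17:35265911-35266001 on the plus strand. The coding sequences used for H2-K1 and H2-Q7 shared at most 45 bases, in exon 3. These lie at chr17:33999412-33999456 on the minus strand and chr17:35439999-35440043 on the plus strand. Over all transcripts of these genes in the authors' tables, 127 stretches of 50 bases and 6 of 100 bases were shared. Longer identical stretches of H2-K1 and H2-Q7 than the 45 bases shown therefore occur. The stretches below are from the GENCODE M21 transcripts, 5′ to 3′ along the genes. They are shown because a read of this sequence that falls wholly inside one cannot be assigned to either gene. They describe the C57BL/6J reference and not the alleles of this line, whose shared stretches were not tested.
H2-D1 and H2-T23: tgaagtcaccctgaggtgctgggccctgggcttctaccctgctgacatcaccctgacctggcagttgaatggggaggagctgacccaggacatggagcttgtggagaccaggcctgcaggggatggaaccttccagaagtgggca
H2-K1 and H2-D1: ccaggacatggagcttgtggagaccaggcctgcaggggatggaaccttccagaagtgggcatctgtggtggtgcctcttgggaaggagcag
H2-K1 and H2-Q7: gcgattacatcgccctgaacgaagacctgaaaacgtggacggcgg

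The sequences before the RefSeq start sites were searched for motifs of the class I regulatory module, which were found in part of the genes. RefSeq promoter sequence (GRCm38.p6) was found for 8 of the 10 genes, and 250 bases before each start site were searched on both strands for the NF-kappaB motif of the class I enhancer, AAGTGAAA, an IRF core, TGACG, the core of the X2 box bound by CREB and ATF factors, ATTGG, the Y box bound by NF-Y, and TATAA. The motifs were chosen after these sequences had been seen. Among 32851 RefSeq promoter windows of the same length, 0.24% held the NF-kappaB motif, 1.36% the IRF core, 17.8% the X2 core, 33.8% the Y box and 22.8% TATAA. H2-K1, H2-D1, H2-Q4 and H2-Q7 each held the NF-kappaB motif, the IRF core, X2 and Y. Of these, H2-D1 and H2-Q4 also held TATAA. B2m held X2, Y and TATAA, Tap1 held X2 and Y, and H2-T23 and Tapbp held Y alone of the 5 motifs. Matches had to follow the motif letters exactly, so a gene without a match may still hold a differing site of the same factor. For H2-D1, H2-T23 and Tapbp the RefSeq start site lies inside the main annotated transcript. Most of each window is therefore not upstream of that transcript, and the sequence before it was not searched in full. In the 180 bases before those starts, the longest stretch free of annotated exons was 0, 26 and 6 bases.

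An X2 core followed on the same strand by a Y box beginning 20 to 30 bases further on was found in H2-K1, H2-D1, H2-Q7 and B2m, against 0.381% of all windows. In H2-Q4 the Y box on that strand came before the X2 core. The spacing, like the motifs, was not set before these sequences had been seen. H2-K1, H2-D1 and H2-Q7 are close copies, so their matches are not independent of each other. The motif matches describe the C57BL/6J reference and not the alleles of this line, and no binding was measured. The 4 sequences below are shown because these genes span the range of levels described next, from B2m to H2-Q7. Capitals mark the 5 motifs, of which TATAA on one strand can overlap TATAA on the other. H2-K1 is at chr17:34000348-34000513 on the minus strand, H2-Q4 at chr17:35379437-35379616, H2-Q7 at chr17:35438975-35439154 and B2m at chr2:122147507-122147685, all on the plus strand, each cut where an annotated exon begins.
H2-K1: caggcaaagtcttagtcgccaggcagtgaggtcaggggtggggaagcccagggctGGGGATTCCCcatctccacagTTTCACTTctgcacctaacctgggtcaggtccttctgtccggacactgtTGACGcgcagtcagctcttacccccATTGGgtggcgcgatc
H2-Q4: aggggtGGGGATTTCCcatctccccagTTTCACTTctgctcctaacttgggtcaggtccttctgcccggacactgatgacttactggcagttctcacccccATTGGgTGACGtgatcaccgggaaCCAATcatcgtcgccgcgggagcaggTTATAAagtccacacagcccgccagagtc
H2-Q7: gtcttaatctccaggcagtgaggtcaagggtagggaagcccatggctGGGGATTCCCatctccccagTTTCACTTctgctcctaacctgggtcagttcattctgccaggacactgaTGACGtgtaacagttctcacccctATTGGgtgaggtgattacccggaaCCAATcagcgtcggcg
B2m: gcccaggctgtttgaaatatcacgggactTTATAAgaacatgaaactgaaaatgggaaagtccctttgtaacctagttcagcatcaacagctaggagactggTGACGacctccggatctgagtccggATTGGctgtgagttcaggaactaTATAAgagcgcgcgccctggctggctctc

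**Figure D1:**
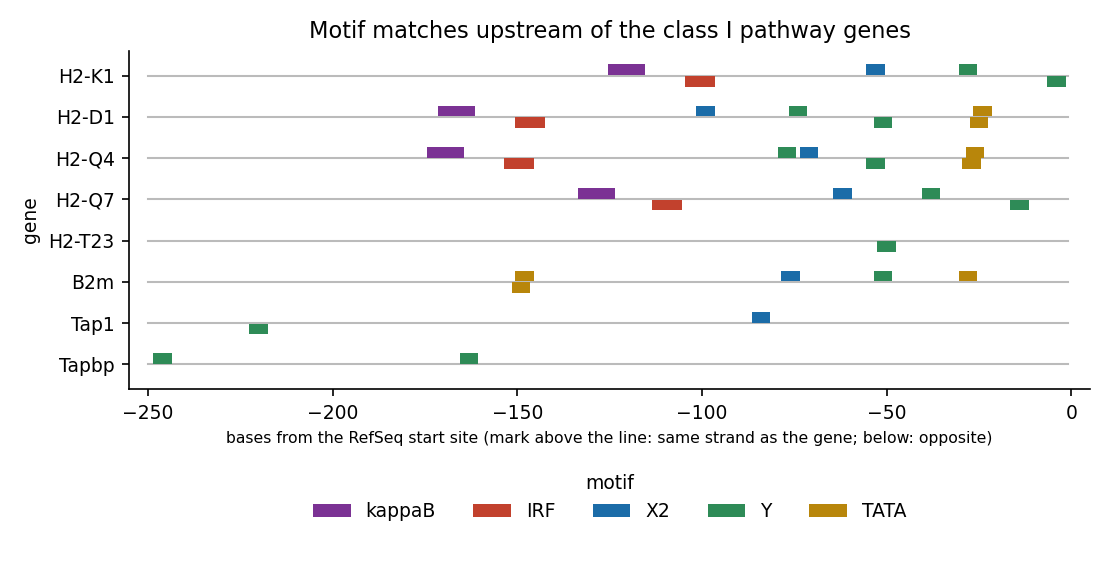
Motif matches in the 250 bases before the RefSeq start site of the 8 genes with a promoter entry, plotted as distance from the start (x axis, bases), with marks above the line for the gene's own strand and below it for the opposite strand. H2-K1, H2-D1 and H2-Q7 show the same order of NF-kappaB, IRF, X2 and Y marks, while H2-T23 and Tapbp carry Y marks alone. The windows of H2-D1, H2-T23 and Tapbp lie mostly inside the main annotated transcript.

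All 10 genes reached 1 TPM in both replicates, the level taken here as expressed, which was reached by 25.4% of all annotated genes and by 45.9% of 21474 protein-coding genes. Levels ran over a wide range, from B2m at 1431 ± 99.4 TPM to H2-Q7 at 28.0 ± 5.68 TPM. By mean TPM, B2m ranked 80, H2-K1 162 and H2-D1 223 among the protein-coding genes, and H2-Q7, the lowest, ranked 3944. On protein-coding transcripts alone, a setting added after the data were seen, Nlrc5 was the lowest at 12.9 ± 0.912 TPM, below H2-Q7 at 21.4 ± 5.28 TPM and H2-T23 at 26.5 ± 1.90 TPM. These are bulk levels, in which fewer expressing cells and less RNA per cell cannot be told apart.

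The classical heavy chains carried most of the heavy-chain RNA. H2-K1, which encodes the K chain that presents peptides to CD8 T cells (ENSMUSG00000061232.11, chromosome 17, 33996017 to 34000347, minus strand), stood at 764.55 TPM in replicate 1 and 661.43 TPM in replicate 2. H2-D1, which encodes the D chain with the same role (ENSMUSG00000073411.7, chromosome 17, 35262730 to 35267499, plus strand), stood at 506.35 and 509.29 TPM. Replicate 1 was the higher library for H2-K1, while the H2-D1 values lay within 1% of each other. The ranges of the 2 genes did not overlap, and the ratio of H2-K1 to H2-D1 was 1.40 ± 0.149. Their sum was 89.1% ± 0.452 of the TPM of all 5 heavy chains, with H2-K1 at 51.9% ± 2.57 and H2-D1 at 37.1% ± 2.12.

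The non-classical heavy chains were lower, and they were not equal to each other. H2-Q4 of the Q region (ENSMUSG00000035929.11, chromosome 17, 35379617 to 35385290, plus strand) stood at 89.31 and 97.47 TPM, which was 6.83% ± 0.783 of the heavy-chain TPM. H2-T23, which encodes Qa-1, the chain that shows leader peptides of other class I molecules to NK-cell receptors (ENSMUSG00000067212.8, chromosome 17, 36029773 to 36032855, minus strand), stood at 29.76 and 27.16 TPM. H2-Q7, which encodes a Qa-2 antigen (ENSMUSG00000060550.11, chromosome 17, 35439155 to 35443773, plus strand), stood at 32.02 and 23.99 TPM. H2-T23 and H2-Q7 overlapped between libraries, and their order turned from replicate 1 to replicate 2. H2-Q4 was above both in each library, at 3.43 ± 0.901 times H2-Q7.

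B2m, the light chain that every class I heavy chain needs to reach the surface (ENSMUSG00000060802.8, chromosome 2, 122147686 to 122153083, plus strand), stood at 1501.02 TPM in replicate 1 and 1360.43 TPM in replicate 2. It was the highest of the 10 genes in both libraries and 2.01 ± 0.0661 times H2-K1. The summed TPM of the 5 heavy chains was 1422 in replicate 1 and 1319 in replicate 2, so B2m stood at 1.04 ± 0.0173 times the heavy-chain sum. Both B2m and the heavy-chain sum were higher in replicate 1, and the ratio between them moved less than either. Because B2m RNA is short, the same ratio on expected counts, which are not per length, was 0.458. With the 17 other heavy-chain genes described further on added to the sum, the ratio of TPM was 0.924.

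The TAP transporter is a pair of half-transporters that work only together. Tap1 (ENSMUSG00000037321.13, chromosome 17, 34187553 to 34197225, plus strand) stood at 78.11 and 68.76 TPM. Tap2 (ENSMUSG00000024339.8, chromosome 17, 34203527 to 34216321, plus strand), its neighbour on the chromosome, stood at 42.11 and 47.51 TPM. Tap1 was the higher in both libraries, at 1.65 ± 0.288 times Tap2, and the pair moved in opposite directions between replicates. The ratio rested on the transcripts counted. On protein-coding transcripts alone it was 3.12, since about as much of the Tap2 TPM lay on a retained-intron transcript as on coding ones. Part of the coding Tap2 TPM lay on transcripts of 378 and 376 nt with few counts.

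Counted over all transcripts, the genes of tapasin and the regulator were close to Tap2 in level. Tapbp (ENSMUSG00000024308.10, chromosome 17, 33915899 to 33929292, plus strand) stood at 38.84 and 42.04 TPM. Nlrc5 (ENSMUSG00000074151.8, chromosome 8, 94434356 to 94527272, plus strand) stood at 38.74 and 37.54 TPM, and the ratio of H2-K1 to it was 19.7 in replicate 1 and 17.6 in replicate 2. On protein-coding transcripts alone Nlrc5 was lower, at 12.9 ± 0.912 TPM against 25.8 ± 0.417 TPM for Tapbp and 22.5 ± 2.67 TPM for Tap2. The Tap2 value included Tap2-204 and Tap2-203, short transcripts of 378 and 376 nt. Tap2-204 held 17.43 and 19.29 counts, and Tap2-203 held 3.76 and 8.41. The longer Tap2-201, of 3442 nt, stood at 14.05 and 15.47 TPM, near Nlrc5-201 at 13.58 and 12.29 TPM. Over all transcripts, Nlrc5 stood at 1.49 ± 0.0163 times Ciita, the class II transactivator gene, which was at 25.6 ± 0.290 TPM. The order of these 2 genes depended on the unit. By counts, which are not per length, Nlrc5 was below Ciita, at 2616 and 2373 against 2709 and 2558. A level of Ciita on coding transcripts alone was not computed.

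**Figure D2:**
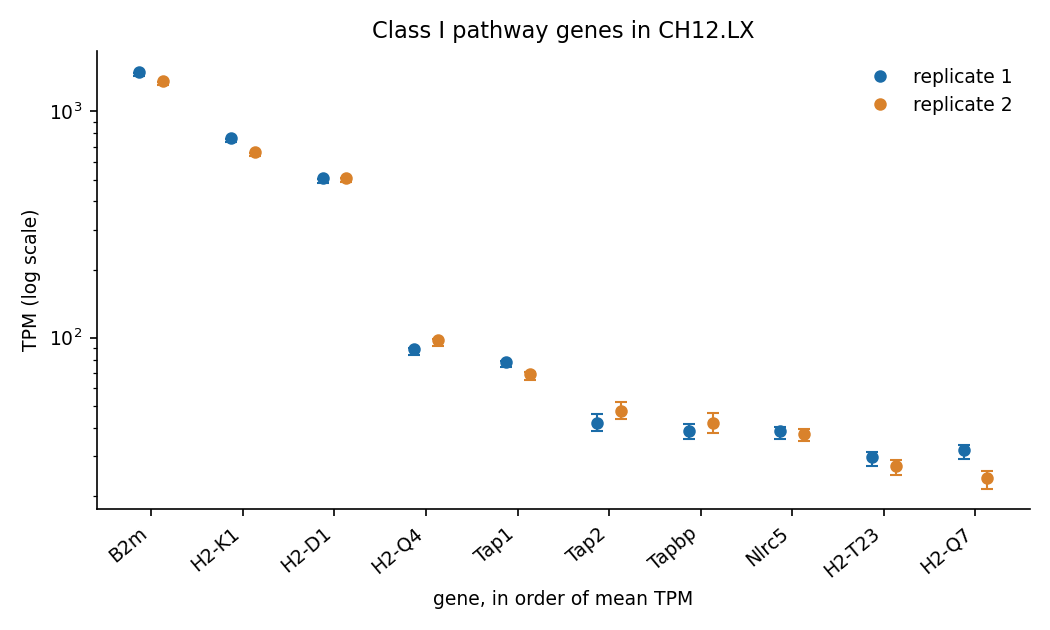
TPM of the 10 genes on a log axis, with a point for each replicate and bars for the deposited credibility bounds around the posterior mean TPM, genes ordered by mean. B2m, H2-K1 and H2-D1 stand at 506.35 TPM or more in both replicates and the other 7 genes at 97.47 TPM or less.

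In the order of levels, H2-T23 and H2-Q7 were the only neighbours whose values overlapped between libraries. Tap2, Tapbp and Nlrc5 followed each other with gaps of 0.07 TPM between the lowest Tap2 and the highest Tapbp value, and 0.10 TPM between the lowest Tapbp and the highest Nlrc5 value. The deposited credibility bounds of these 3 neighbours overlapped in each library, so their order is not separated by these data. The other neighbours, B2m over H2-K1, H2-K1 over H2-D1, H2-D1 over H2-Q4, H2-Q4 over Tap1, Tap1 over Tap2 and Nlrc5 over H2-T23, were apart in both libraries. The confidence level of the bounds is not given in the sources used here. They surround the posterior mean and not the main estimate, and 5 of 20 TPM values lay outside their own bounds, among them both values of B2m and H2-K1.

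The heavy chains share sequence with each other, but the deposited uncertainty of their gene totals was small. Of the distinct 50-base words in the annotated transcripts, 26.4% of those of H2-Q7, 20.2% of H2-Q4, 13.6% of H2-T23, 12.8% of H2-D1 and 10.2% of H2-K1 also occurred in another gene. With 100-base words the share fell by construction, to 12.0% for H2-Q7 and 1.16% for H2-K1. The gene that shared the most 50-base words with both H2-K1 and H2-Q7 was H2-Q10, which held 40.5 and 55.97 counts. The deposited posterior SD of the count, which measures how far shared reads could be moved between features, was 2.71 on 926.01 counts for H2-Q7 in replicate 1. It was 3.53 on 824.37 counts for H2-T23 and 2.81 on 21526.77 counts for H2-K1 in the same library. B2m and Nlrc5 shared no 50-base word with another gene, Tap1, Tap2 and Tapbp shared 0.442% to 1.15%, and all 5 had a posterior SD of 0 in both libraries. The posterior SD takes the reference alleles as given, so it does not cover reads of k-type or d-type alleles.

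By TPM, some genes were read almost wholly from coding transcripts. Others had a large share on transcripts annotated as retaining an intron, which do not encode the full protein. B2m has 1 annotated transcript. Coding transcripts held 96.3% ± 0.722 of the TPM of H2-K1, 96.2% ± 0.338 of H2-D1, 94.4% ± 0.294 of Tap1 and 93.0% ± 0.673 of H2-T23. They held 80.1% ± 0.631 of H2-Q4, 76.0% ± 3.42 of H2-Q7, 64.0% ± 4.61 of Tapbp, 50.1% ± 1.68 of Tap2 and 33.9% ± 1.64 of Nlrc5. The share did not follow the level in each case: H2-T23, at 28.5 ± 1.84 TPM over all transcripts, had a higher coding share than H2-Q4 at 93.4 ± 5.77 TPM. By TPM the coding share was lowest for the regulator. By counts, which are not per length, it was lowest for Tap2, at 47.9% and 48.6%. Coding transcripts then held 93.3% and 90.9% of Tapbp, above H2-T23 at 88.1% and 86.6%, and 72.9% and 69.8% of Nlrc5.

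A main coding transcript carried most of H2-K1 and H2-D1. H2-K1-205, of 8 exons, held 91.41% and 89.99% of the gene's TPM, and H2-D1-202, also of 8 exons, held 82.22% and 79.47%. The second transcript of H2-D1, H2-D1-203, is annotated at 391 nt and held 12.74% of the TPM in replicate 1 on 1.35% of the gene's counts, because TPM divides by length. H2-Q7 was spread most among the heavy chains. Its leading coding transcript H2-Q7-204, with a coding sequence of 645 bases against 1080 for H2-K1-205, held 45.08% and 51.97%, and 5 of its 6 transcripts held counts.

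In Tap2, 2 transcripts held most of the counts. Tap2-202, annotated as retaining an intron, held 51.10% and 48.72% of the Tap2 TPM, on 1051.59 and 1085.49 counts with posterior SDs of 38.24 and 40.61. The coding transcript Tap2-201 held 945.22 and 998.82 counts, 33.36% and 32.56% of the TPM. In Tapbp, the coding transcript Tapbp-201 held 1457.73 and 1347.59 counts. Tapbp-202, a short non-coding transcript of 649 nt, held 0 counts in replicate 1 and 49.64 in replicate 2, which was 13.80% of the TPM there.

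Nlrc5 had the largest posterior SD of any transcript of the 10 genes in both libraries. Nlrc5-201, the coding transcript of 49 exons and 6945 nt, held 72.9% and 69.8% of the gene's counts and 35.05% and 32.74% of its TPM. Nlrc5-203, a transcript of 1727 nt annotated as retaining an intron, held 54.50% and 61.09% of the TPM on 663.82 and 692.03 counts. Its posterior SD was 91.24 counts in replicate 1, and Nlrc5-202, a coding transcript of 1721 nt listed at 0 counts in both libraries, had a posterior SD of 90.54. The gene total of Nlrc5 had a posterior SD of 0, so the uncertainty lies between its transcripts and not in the gene.

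**Figure D3:**
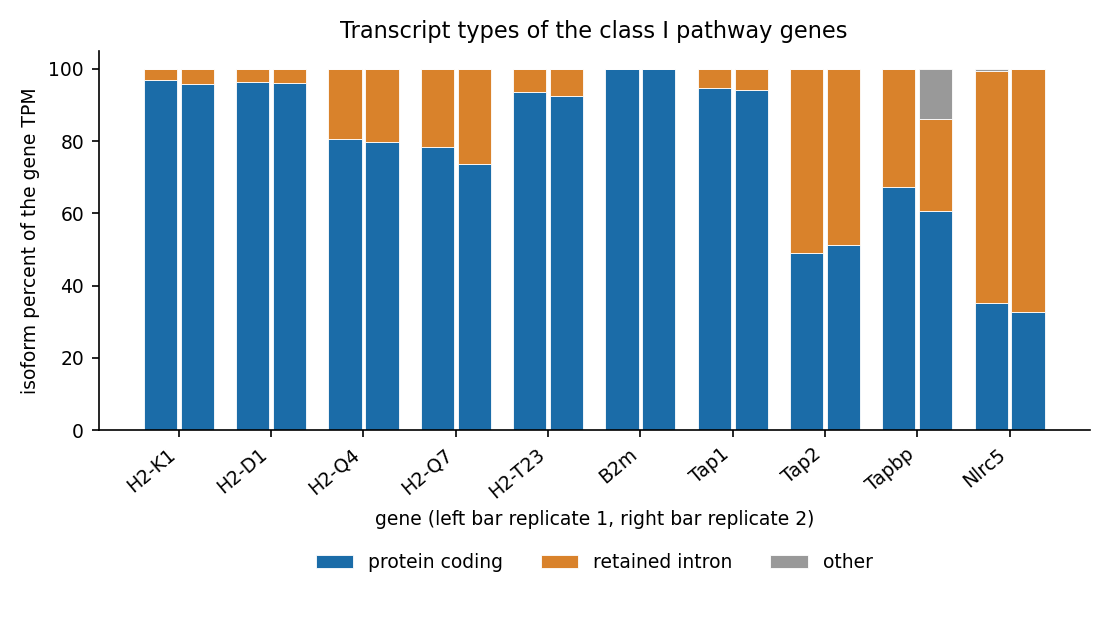
Share of each gene's TPM (y axis, isoform percent) on protein-coding, retained-intron and other transcripts, with replicate 1 as the left bar and replicate 2 as the right bar of each gene. B2m is wholly coding, whereas coding transcripts hold about 50.1% of Tap2 and 33.9% of Nlrc5.

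Between the replicates, H2-Q7 differed most of the 10 genes by TPM. Differences are given as log2(TPM + 0.5) of replicate 2 minus replicate 1 over 11661 genes with a mean of 20 or more expected counts, all 10 genes included. With 1 library on each side they compare the libraries and carry no p-value. A difference past 0.32 in either direction was taken as a call. It was passed by 1 of the 10 genes, H2-Q7 at -0.41, with 926.01 and 688.27 counts. Of all genes tested 13.4% passed it, 8.55% with the lower value in replicate 2 and 4.85% with the higher. The median over the 10 genes was -0.09, against -0.00 over all genes tested, and 6 of the 10 were lower in replicate 2, against 50.2% of all genes. On CPM, which is the share of a library's counts and not per length, 8 of the 10 were lower, H2-D1 and Tapbp being the genes that changed side, with plain, TMM and median-of-ratios scaling alike. Each of H2-K1 at -0.21, Tap1 at -0.18, B2m at -0.14, H2-T23 at -0.13 and Nlrc5 at -0.04 was lower in replicate 2, and H2-D1 at 0.01, Tapbp at 0.11, H2-Q4 at 0.13 and Tap2 at 0.17 were not. The credibility bounds of the replicates did not overlap for 5 of the 10 genes, B2m, H2-K1, H2-Q4, Tap1 and H2-Q7. The same held for 20.5% of all genes tested, a background not matched for counts, on which the width of the bounds depends. By size of difference, 46.8% of genes tested were at or below H2-Q4 and 52.4% at or below B2m. For Tap1, H2-K1 and H2-Q7 this was 63.7%, 69.8% and 92.6%.

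H2-D1 and Tapbp differed in direction between units. The H2-D1 count was lower in replicate 2, at 15747.89 against 16793.95, while its TPM was 509.29 against 506.35. The Tapbp count was lower too, at 1484 against 1563, while its TPM was higher. The deposited effective length, the number of positions at which a read can start, averaged over the transcripts used, was 1925.36 nt in replicate 1 and 1760.21 nt in replicate 2 for Tapbp. For H2-D1 it was 1586.83 and 1542.00 nt. The ERCC spike-ins held 78336 counts in replicate 1 and 60634 in replicate 2. Scaling the counts to them put the median difference over all genes tested at 0.29, against -0.01 on plain CPM. With spike-in scaling 1 of the 10 genes, H2-Q7 at -0.06, was lower in replicate 2. H2-K1, H2-D1, Tap1, Tapbp, B2m, H2-T23 and Nlrc5 thus changed side against plain CPM. Relative to the median of all genes, the median of the 10 genes was -0.09 under both scalings. This follows from the method, since scaling moves all genes of a library by the same factor.

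**Figure D4:**
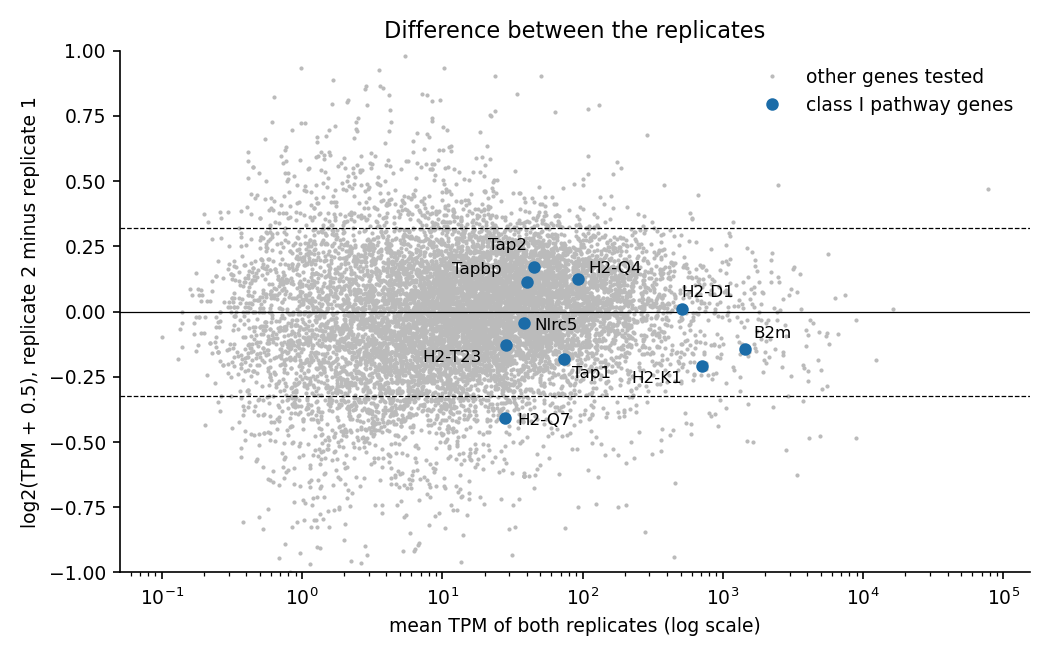
Difference between replicates, log2(TPM + 0.5) of replicate 2 minus replicate 1 (y axis), against mean TPM (x axis, log scale), with the 10 class I pathway genes in blue, other tested genes in grey and dashed lines at 0.32 in each direction. H2-Q7 at -0.41 is the blue point outside the dashed lines, and 49 genes beyond 1 log2 unit are not shown.

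The rest of the pathway was taken from 6 gene lists with 61 genes, of which 58 were found by symbol and 46 reached 1 TPM in both replicates. H2-Q8, H2-Q9 and H2-T9 were not matched. Outside the heavy chains, 38 of 41 genes passed, against the 45.9% of protein-coding genes given above. The lists were chosen with earlier results of these data known. They also hold genes with roles beyond class I, such as those of the standard proteasome, so this share is a description and not a test.

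Among 17 other heavy-chain genes, 8 passed. H2-Q6, a Q-region copy next to H2-Q7, was the highest at 65.1 ± 6.02 TPM, which was 2.35 ± 0.262 times H2-Q7. H2-M3, which presents formylated peptides of bacterial and mitochondrial origin, stood at 55.3 ± 0.841 TPM. H2-T10 and H2-T22, similar genes whose products are seen by gamma-delta T cells, stood at 20.3 ± 0.269 and 12.0 ± 0.856 TPM. H2-M1, H2-M2, H2-M9 and H2-T3 had 0 counts in both libraries, which for H2-T3 allows up to 0.123 and 0.128 TPM (3 counts, counting error only). With these 17 genes added to the sum, the share of H2-K1 and H2-D1 was 78.9%.

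Of 5 genes for class I-like molecules, 2 passed, both low. Mr1, which presents vitamin metabolites, stood at 5.76 ± 0.410 TPM and Cd1d1, which presents lipids to NKT cells, at 4.69 ± 0.247 TPM. Fcgrt, the neonatal Fc receptor gene, held 2 counts and 1 count, and Cd1d2 held 0.

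All 9 proteasome genes passed, those of the exchanged and of the standard catalytic subunits among them. The immunoproteasome, the form that interferon induces and that lymphocytes carry at rest, exchanges 3 catalytic subunits. Psmb8 stood at 596 ± 10.2 TPM against 284 ± 13.1 TPM for Psmb5, the subunit it replaces, so Psmb8 made 67.7% ± 1.38 of that pair. The other pairs were the reverse: Psmb9 at 114 ± 0.870 TPM made 15.9% ± 0.943 of its pair with Psmb6, and Psmb10 at 61.7 ± 1.02 TPM made 14.3% ± 0.401 of its pair with Psmb7. Over the 3 pairs the immunoproteasome subunits made 38.0% ± 0.155 of the TPM. The proteasome activator genes Psme1 and Psme2 stood at 272 ± 21.7 and 389 ± 41.1 TPM. All 5 peptidase genes passed, from Lap3 at 107 ± 8.39 TPM to Npepps at 24.4 ± 2.09 TPM. Erap1, which trims peptides in the endoplasmic reticulum, stood at 69.5 ± 5.83 TPM.

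The loading complex was uneven. All 7 genes of endoplasmic-reticulum loading and quality control passed. The chaperones Calr and Canx, which hold newly made heavy chains, stood at 497 ± 20.3 and 494 ± 17.1 TPM, and Pdia3, the oxidoreductase of the complex, at 135 ± 7.62 TPM. Tapbpl, which encodes the peptide editor TAPBPR, was the lowest at 11.7 ± 1.68 TPM, and Tapbp stood at 3.52 ± 0.702 times Tapbpl.

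All 15 genes for regulators of the class I genes passed. Nfkb1, which encodes an NF-kappaB subunit, was the highest at 274 ± 12.2 TPM. The RFX genes whose products NLRC5 binds with were lower, Rfx5 at 11.3 ± 0.799 TPM, Rfxap at 13.9 ± 1.46 TPM and Rfxank at 4.80 ± 0.580 TPM. Nfya, Nfyb and Nfyc, which encode the Y-box factor, stood at 17.4 ± 4.59, 32.5 ± 3.02 and 29.8 ± 2.73 TPM. Irf1, an interferon-induced activator of class I genes, stood at 16.6 ± 2.14 TPM, and Irf2 was the lowest at 1.36 ± 0.247 TPM.

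**Figure D5:**
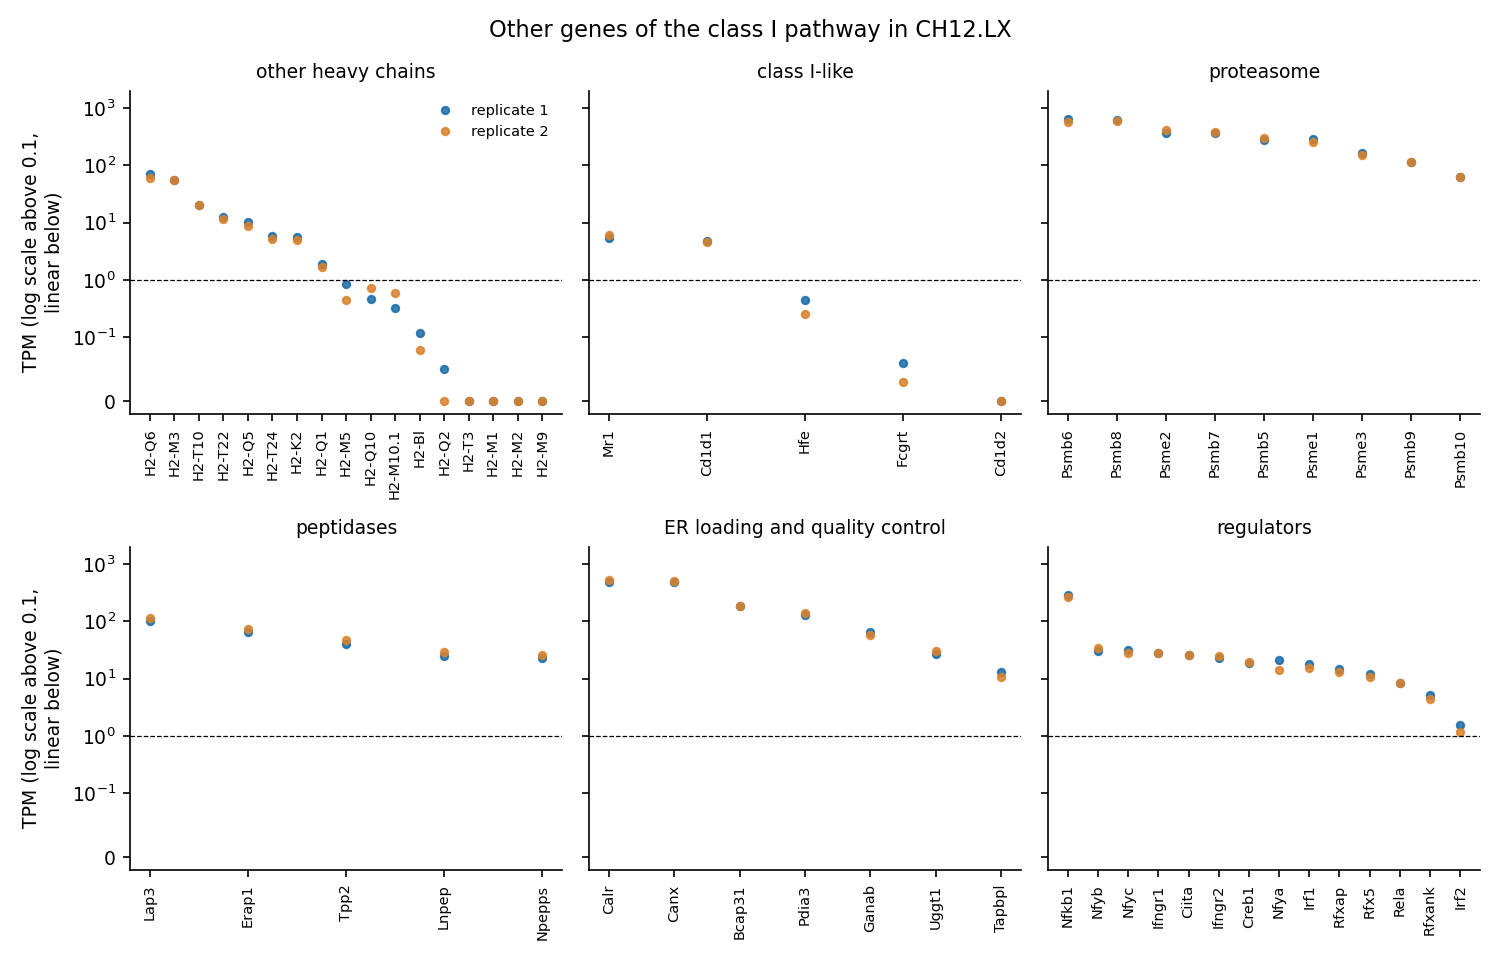
TPM of 57 of the 58 other genes of the pathway found in the tables, by list, with a point for each replicate on an axis that is logarithmic above 0.1 TPM and linear below, and a dashed line at 1 TPM. The proteasome, peptidase, loading and regulator genes shown all lie above the line, while 9 of 17 other heavy chains and 3 of 5 class I-like genes do not.

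The cell type given by the labels was checked on marker genes. All 6 B-cell markers passed, from Pax5 at 8.43 ± 0.933 TPM to Ms4a1 at 524 ± 43.5 TPM. None of 4 T-cell, 4 myeloid and 3 stromal markers did, with Cd3e and Cd14 at 0 counts, and summed levels of the 3 lists stayed below 1 TPM in each library. These lists are short and were chosen with earlier results of these data known. Lck, a T-cell gene outside them, had a mean of 51.6 TPM. Cd68 and Adgre1, myeloid genes outside them, had means of 93.6 and 6.7 TPM. The result therefore holds for the listed markers and not for all genes of these lineages. Of 3 erythroid markers Hbb-bt at 4.47 ± 0.127 TPM and Hba-a1 at 3.60 ± 0.615 TPM passed. The part of cells with erythroid markers in the levels above was not tested.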

How the data were processed

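RNA of 2 CH12.LX libraries was analysed from the gene and transcript tables that the authors deposited, made per the accompanying text files on assembly mm10 with GENCODE annotation M4. The aligner, the quantification tool and whether counting used strand were not given in the sources used here. Expected counts, deposited by the authors, are estimated counts that divide shared reads between features. TPM values, per length on a common total, were deposited by the authors. The isoform percent, also deposited, is a transcript's share of its gene's TPM. The posterior SD of counts and the credibility bounds are the authors' deposited scores of uncertainty. Lengths are as deposited.

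Symbols, transcript types and coordinates came from GENCODE M21 on GRCm38, matched by identifier without version. Members, gene lists and alternatives were chosen with earlier results of these data known. All 10 members are named, and from the lists those at either end of the range or completing a known pair or complex. H2-M3, Erap1 and Irf1 were named after their values were seen. The values of 2 listed genes are not reported here, though both are in the counts of their lists. A gene counted as expressed at 1 TPM in both replicates. Differences used a pseudocount of 0.5 TPM. TMM factors (edgeR 4.0.16 in R 4.3.3, on rounded expected counts), median-of-ratios factors, ERCC scaling, posterior mean TPM, other pseudocounts, thresholds and left-out replicates were alternatives. Word sharing used words of 50 and 100 bases from transcripts in the authors' tables. Coding sequences, in place of the planned proteins, were aligned globally with Biopython 1.88. The labels name separate biosamples, and SDs over 2 libraries measure the spread of this pair. The calculation of differences was tested on simulated data. Python 3.11.15 was used.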

Additional observations from a re-analysis of the deposited data

How the results depend on the processing

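All 10 genes passed the level for expression with thresholds of 0.5 and 2 TPM, posterior mean TPM, coding transcripts only and either replicate left out, and the number of other pathway genes at that level was 44 to 48 in the alternatives run for it. Expected counts, not divided by length, moved the share of H2-K1 and H2-D1 to 88.0%, B2m per heavy chain to 0.458, Tap1 per Tap2 to 1.95 and the immunoproteasome share to 44.8%. On protein-coding transcripts only, an alternative chosen after the data were seen, these were 90.5% for the classical share, 1.10 for B2m and 3.12 for Tap1 per Tap2, and Nlrc5 in place of H2-Q7 was the lowest gene. With the other heavy chains in the sum, also chosen later, the classical share was 78.9% and B2m per heavy chain 0.924. Scaled to the spike-ins, the median difference was 0.21 and 2 genes, H2-Q4 and Tap2, lay past 0.32 in place of H2-Q7. Under the other 7 alternatives for differences, 1 gene, H2-Q7, lay past 0.32. No paired analysis was possible because there is 1 group. With 2 libraries the SDs are themselves imprecise.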

Other observations

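Several of the 10 genes overlap other annotated genes, and whether counting used strand was not stated in the sources used here. H2-T23 lies wholly inside the antisense gene A930015D03Rik, which held 74.5 and 70.18 counts against 824.37 and 727.87 for H2-T23. H2-Q4 overlaps the antisense gene Gm11131 over 676 bases, with 71 and 56 counts. Tap1 overlaps Psmb9, an immunoproteasome gene on the other strand, over 212 bases and Psmb9 held 2326 and 2144 counts. Tapbp overlaps Zbtb22 on the same strand over 3422 bases, with 449 and 409 counts for Zbtb22. B2m lies inside the annotated span of Patl2 on the other strand, which held 0 counts and 1 count. Their part in the levels of the 10 genes was not tested.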
